A study of Mus musculus with 8 samples.

Results

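Peaks of open chromatin were examined at 9 genes of Polycomb repressive complex 2 (PRC2) in mouse retinal ganglion cells (RGCs): Ezh1, Eed, Suz12, Rbbp4, Mtf2, Phf1, Phf19, Jarid2 and Aebp2. The genes were chosen by name, as the partners of Ezh2 in the complex and its paralog Ezh1, among 21900 protein-coding genes in the annotation used. Peaks counted for a gene if they overlapped its body or the 10 kb on either side. The libraries were ATAC-seq libraries, in which a transposase inserts adapters into accessible DNA. Adult C57BL/6J mice of both sexes received an intravitreal injection of AAV2-GFP (control, 3 samples), AAV2-Ezh2 (3 samples) or AAV2-Ezh2-Y726D (2 samples), a form of Ezh2 that lacks methyltransferase activity. In every group the optic nerve was crushed 2 weeks later, and 50000 RGCs per library were sorted 3 days after the crush, as live cells carrying Thy1 on their surface. All 8 samples therefore came from injured, virus-injected eyes, and no uninjured group was included. The promoter that drove the transgenes and the number of animals behind a library were not given in the sources used here, so p-values measure the spread between these samples, which may be technical.

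PRC2 places methyl groups on lysine 27 of histone H3, a mark of silenced genes. Its core consists of Ezh2 or Ezh1, the catalytic subunits, together with Eed, which binds the finished mark and stimulates the enzyme, Suz12, the scaffold on which the others assemble, and a histone-binding protein, Rbbp4 or Rbbp7. Accessory subunits give rise to different forms of the complex: Mtf2, Phf1 and Phf19, the Polycomb-like proteins, belong to PRC2.1, and Jarid2 and Aebp2 belong to PRC2.2. Mature neurons lower Ezh2, whereas Ezh1 persists in nondividing cells. The question for this set was whether adding active or catalytically dead Ezh2 altered open chromatin at the genes that encode its own partners. A peak reports accessible DNA and does not measure the RNA or protein of a gene.

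The 8 lists held 112939 to 135895 peaks. Read numbers are not in the lists, so depth is unknown. The background pileup recovered from steps in the low folds served as a relative index of depth. It was 2.69 to 3.74 reads in GFP and 3.09 to 3.59 in Ezh2. In Ezh2-Y726D it was 2.39 in replicate 1, the lowest of all lists, and 3.12 in replicate 2. The part of depth in peaks missing or lower with Ezh2-Y726D was not tested. Merging peaks that overlapped by 1 bp or more gave 189914 regions, and 69493 of them (36.6%) were present in every list. Of 20 RGC markers, 18 to 19 had a peak at the start site in each list, but other cell types were also visible. Rod markers had peaks at 15 to 19 of 20 genes. Microglia and macrophage markers had peaks at 13 to 17 of 20 genes in the GFP lists, 15 to 17 in the Ezh2 lists and 4 to 5 in the Ezh2-Y726D lists. T cell markers had peaks at 15 to 18 of 20 genes in GFP, 19 to 20 in Ezh2 and 4 to 5 in Ezh2-Y726D. In bulk samples such as these, fewer cells of a type and less open chromatin per cell cannot be told apart.

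Start sites were described first, because all 9 genes had a peak there in all 8 lists. Among all protein-coding genes, 64.6% did, and 64.2% of the 17492 whose start site the annotation gives (gene ends were used for the others). The height of each peak is given as a percentile of the deposited fold (the pileup at the summit over the local background of the same library) within its own list, since folds of libraries of unknown depth are not directly comparable. The median start-site region with a peak in all 8 lists averaged the 85.3rd percentile.

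The DNA just upstream of start sites is shown for 4 genes, as the sequence under or beside these peaks. The genes are Mtf2 (highest start-site peak), Ezh1 (the catalytic paralog), Jarid2 (lowest) and Aebp2, whose peak lay away from the outermost start. For Aebp2 the outermost and second starts are shown, and the summit of its peak lies in neither stretch. Each sequence is the 250 bases upstream of the start, 5′ to 3′ on the strand of the gene, from the RefSeq annotation of GRCm38.p6. Capitals mark the GC box GGGCGG, the core recognised by Sp and Klf factors, on either strand.
Mtf2, chr5:108065424-108065673, + strand: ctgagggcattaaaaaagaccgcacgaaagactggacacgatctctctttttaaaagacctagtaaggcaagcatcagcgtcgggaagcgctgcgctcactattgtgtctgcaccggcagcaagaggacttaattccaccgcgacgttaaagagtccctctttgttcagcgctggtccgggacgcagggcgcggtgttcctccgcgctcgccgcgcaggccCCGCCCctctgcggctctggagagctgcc
Ezh1, chr11:101226464-101226713, - strand: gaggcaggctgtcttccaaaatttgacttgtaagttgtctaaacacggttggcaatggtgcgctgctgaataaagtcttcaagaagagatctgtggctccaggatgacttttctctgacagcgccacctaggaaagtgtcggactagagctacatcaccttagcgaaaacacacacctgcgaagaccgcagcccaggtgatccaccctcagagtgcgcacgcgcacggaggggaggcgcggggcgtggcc
Jarid2, chr13:44730524-44730773, + strand: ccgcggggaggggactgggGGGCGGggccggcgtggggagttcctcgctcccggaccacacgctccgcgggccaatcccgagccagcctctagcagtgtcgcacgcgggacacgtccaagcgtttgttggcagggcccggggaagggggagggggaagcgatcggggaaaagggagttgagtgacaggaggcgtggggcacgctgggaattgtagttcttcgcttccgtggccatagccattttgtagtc
Aebp2, outermost start, chr6:140622413-140622662, + strand: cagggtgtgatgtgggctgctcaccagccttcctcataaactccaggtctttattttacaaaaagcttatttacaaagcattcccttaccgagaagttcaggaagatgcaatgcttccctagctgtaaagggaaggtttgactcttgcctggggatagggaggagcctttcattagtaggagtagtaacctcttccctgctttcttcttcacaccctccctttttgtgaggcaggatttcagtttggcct
Aebp2, second start, chr6:140624659-140624908, + strand: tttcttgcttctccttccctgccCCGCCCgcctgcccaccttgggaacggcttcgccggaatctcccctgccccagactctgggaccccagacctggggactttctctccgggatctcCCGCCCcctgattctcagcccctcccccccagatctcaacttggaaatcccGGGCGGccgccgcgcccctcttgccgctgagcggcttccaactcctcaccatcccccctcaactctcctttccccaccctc
The annotation lists 13 start sites for the 9 genes, and 9 of the 13 upstream stretches held the GC box, against 32.7% of 32851 promoters in the annotation. The CCAAT box, the NF-Y motif, was found in 5 of the 13 and in 33.8% of all promoters. The Ets core CCGGAA was found in 2 (12.03% of all promoters) and the NRF1 core TGCGCA in 3 (6.43% of all). Both strands were searched for each motif, and a match is a stretch of letters, not a bound site. Ezh1 held the NRF1 core and no GC box, and Eed held none of the 4 motifs. Phf1 and Phf19 held 4 GC boxes each. GC content upstream of the outermost start was 67.2% at Jarid2 and 59.2% at Mtf2, against a median of 52.4%. It was 75.2% at Phf19, 73.6% at Suz12, 72.0% at Phf1, 67.6% at Rbbp4, 55.2% at Ezh1 and 54.4% at Eed. A relation between GC content and peak height was not tested.

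Start-site peaks fell into a graded order. Mtf2, which recruits PRC2 to CpG islands, had the highest, with a mean percentile of 98.6 ± 0.874 (SD over 8 lists). Suz12 followed at 96.6 ± 0.713, Ezh1 at 96.5 ± 1.77, Phf1 at 93.8 ± 1.19, Rbbp4 at 90.8 ± 1.56 and Eed at 84.7 ± 1.44. Phf19 and Aebp2 were lower and more variable, at 71.2 ± 7.70 and 71.1 ± 6.83. Jarid2, a DNA-binding subunit that helps bring PRC2 to its targets, was lowest at 47.0 ± 2.19. Only at 2 steps of this order did the 8 values of neighbours not overlap, Rbbp4 above Eed and Aebp2 above Jarid2. Suz12 and Ezh1 were not separated (Suz12 was higher in 4 of 8 lists), and neither were Phf19 and Aebp2 (4 of 8). Among the 14132 start-site regions of protein-coding genes, Mtf2 stood at the 92.2nd percentile and Jarid2 at the 10.99th.

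**Figure D1:**
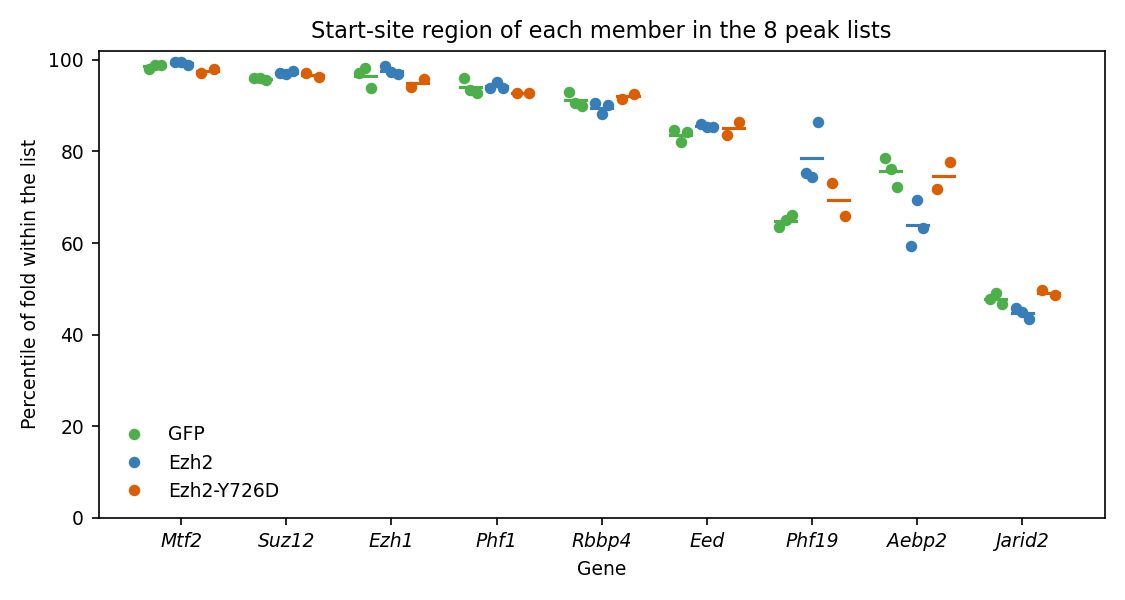
Percentile of the deposited fold within its list (y axis) of the start-site region of each gene (x axis), with 1 point per list and bars at group means (GFP and Ezh2 n = 3, Ezh2-Y726D n = 2). Values ran from 97.1 to 99.6 at Mtf2 and from 43.3 to 49.7 at Jarid2, and no gene differed between groups beyond the threshold of the test.

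No start-site region of the 9 genes passed the test in any comparison. For this test, regions with a peak in all 8 lists were ranked by fold within each list, ranks were turned into normal scores (units of 1 SD of all ranked regions), and groups were compared with limma at a Benjamini-Hochberg adjusted p under 0.05 over all 69493 regions. Calls were made at 0 of 9 start-site regions in each comparison, whereas over the start-site regions of all protein-coding genes limma called 0.927% for Ezh2 and 1.97% for Ezh2-Y726D, each set against GFP, and 5.17% for active against dead Ezh2. Against shares this low, nothing is read from 0 of 9 about the set. At an unadjusted p under 0.05 the counts were 2, 0 and 1 of 9, against 20.0%, 24.4% and 29.4% of all regions in the 8 lists. The unadjusted share of start-site regions alone was not counted. Adjusted calls were rarer there than over all regions, so nothing is read from these counts either.

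At the Ezh1 start site (region chr11:101225587-101226859) percentiles were 97.1, 98.3 and 94.0 in GFP replicates 1, 2 and 3, 98.6, 97.5 and 96.9 in Ezh2, and 94.0 and 95.8 with Ezh2-Y726D. Groups overlapped between GFP and both others, while both Ezh2-Y726D values lay below all 3 Ezh2 values. Active against dead Ezh2 gave a score difference of 0.40 ± 0.23 (SE) (limma adjusted p = 0.294). Its summit lay within 22 bp of the annotated start in every list.

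Mtf2 (chr5:108065222-108066452) came nearest to a call among the start sites. Its percentiles were 97.9, 98.8 and 99.0 in GFP, 99.6, 99.5 and 98.9 in Ezh2, and 97.1 and 97.9 with Ezh2-Y726D. Both Ezh2-Y726D values lay below the 3 Ezh2 values, and the score difference between those groups was 0.58 ± 0.20 (limma adjusted p = 0.0754).

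Phf19 (chr2:34913005-34914804) and Aebp2 (chr6:140622988-140624694) lay on opposite sides of GFP in the Ezh2 lists, and neither difference passed the test. Phf19 stood at 63.5, 65.0 and 66.1 in GFP, 75.2, 74.4 and 86.4 in Ezh2, and 73.1 and 65.8 with Ezh2-Y726D. All 3 Ezh2 values exceeded the GFP values, with a score difference of 0.51 ± 0.18 (limma adjusted p = 0.152). Aebp2 stood at 78.5, 76.3 and 72.2 in GFP, 59.4, 69.4 and 63.4 in Ezh2, and 71.8 and 77.7 with Ezh2-Y726D. Here all 3 Ezh2 values lay below the others, with a score difference from GFP of -0.43 ± 0.18 (limma adjusted p = 0.199).

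At the remaining start sites the groups lay closer together. Jarid2 (chr13:44729720-44731440) stood at 46.7 to 49.1 in GFP, 43.3 to 45.9 in Ezh2 and 48.6 to 49.7 in Ezh2-Y726D. The Ezh2 values were the lowest of the 8, yet the score difference from GFP was only -0.13 ± 0.16 (limma adjusted p = 0.730). For Suz12 (chr11:79992442-79994074), Rbbp4 (chr4:129334679-129336316), Eed (chr7:89979897-89981733) and Phf1 (chr17:26932575-26933813), adjusted p-values in the 3 comparisons ran from 0.586 to 0.9796. The Rbbp4 region also covers the start of the neighbouring gene Zbtb8os, so its height cannot be assigned to Rbbp4 alone.

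Peak shape differed between the genes in ways the percentile does not show. Jarid2 had the weakest fold (4.19 to 5.04) over a broad stretch of 1414 to 1698 bp, whereas the Ezh1 peak was narrower at 842 to 1225 bp with folds of 10.2 to 13.6. The deposited −log10 q ran from 45.1 to 63.4 at Jarid2 and was lowest at Phf19, at 17.4 to 39.5. Aebp2 has 3 annotated starts, and its summit lay 983 to 998 bp downstream of the outermost one in all 8 lists. The merged region ended before the second start, so the peak lay between them. The stretch upstream of the outermost start had a GC content of 46.4% and 1 CpG, and that of the second 66.4% and 14 CpGs.

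The 3 start-site regions with the pattern most like that of Ezh1 over the 8 lists belonged to Adck2, Prkci and B9d1. Likeness was measured as the root mean square difference in normal score, which was 0.0988, 0.144 and 0.151, and 40 of 14131 regions came closer than 0.2.

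Away from the start sites, open chromatin at the 9 genes was spread unevenly. The windows held 82 regions: 29 (35.4%) were present in every list, 36 in 2 to 7 lists and 17 (20.7%) in 1 list. Over the series these shares were 36.6% for all 8 lists and 17.2% for 1. Jarid2, the longest gene with a window of 210.9 kb, held 38 regions and Aebp2 held 16 in 76.0 kb. Suz12 and Mtf2 held 2 each, in 61.0 and 63.6 kb. Ezh1 and Phf19 held 6 each, Phf1 held 5, Rbbp4 held 4 and Eed held 3.

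A pair of distal regions lay between the Ezh1 and Phf1 start sites in mean percentile, at 94.7 ± 0.916 (Phf19) and 94.8 ± 1.24 (Jarid2; SD over 8 lists), and were not called in any comparison. Within Phf19, chr2:34904508-34905792, 8826 bp into the gene, stood at the 93.2nd to 95.8th percentile in the 8 lists and was above the start site of Phf19 in each. Within Jarid2, chr13:44869478-44870116, 139023 bp into the gene, stood at 93.4 to 97.5, although the Jarid2 start site never exceeded 49.7. Adjusted p-values for these 2 regions ran from 0.591 to 0.924 in the 3 comparisons. No exon annotation was used here, so regions inside a gene are described only by their distance from its start.

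**Figure D2:**
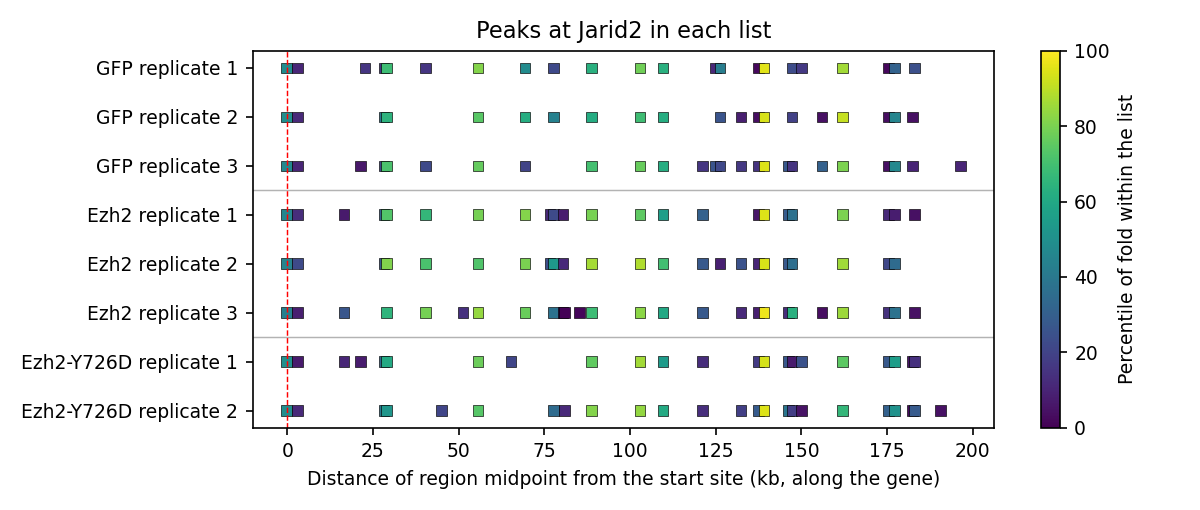
Peaks at Jarid2 in each of the 8 lists (y axis) by the distance of the merged region from the start site in kb (x axis), with the colour giving the percentile of fold within the list from 0 to 100. The start-site peak is intermediate in every list, a region 139023 bp into the gene is high in every list, and a region 69386 bp into the gene is missing from both Ezh2-Y726D lists.

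Counts of peaks in the 9 windows overlapped between the groups in the full lists. GFP lists had 48, 45 and 55 peaks, Ezh2 lists 46, 48 and 53, and Ezh2-Y726D lists 43 and 48. The difference was -0.333 for Ezh2 against GFP (two-sided exact permutation p = 1), -3.83 for Ezh2-Y726D against GFP (exact p = 0.5) and 3.5 for Ezh2 against Ezh2-Y726D (exact p = 0.5). The sign of the first turned positive under some other settings, so no direction is given for it. Per 10000 peaks of the list, the windows held 4.08 ± 0.0865 peaks with GFP, 3.77 ± 0.129 with Ezh2 and 3.59 ± 0.198 with Ezh2-Y726D (SD, n = 3, 3 and 2). Both overexpression groups lay wholly below GFP on this scale (exact p = 0.1 each, the smallest that 3 against 3 or 2 against 3 samples allow), and they share the GFP controls. With every list shortened to the same number of peaks, the differences were -3.67, -7.17 and 3.5 in the same order, with no overlap between groups (exact p = 0.1 each, again the smallest possible). How often windows of other genes separate as fully was not counted, so neither result is read as particular to these genes. The GFP lists held 5, 8 and 8 peaks at Aebp2, the Ezh2 lists 7, 10 and 9 and the Ezh2-Y726D lists 4 and 5, with 4.17 more in Ezh2 than in Ezh2-Y726D (exact p = 0.2). Eed had 3, 2 and 3 in GFP, 1, 2 and 1 in Ezh2, and 1 and 1 with Ezh2-Y726D. None of these differences reached p under 0.05, which the design cannot give.

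The rank test was then applied to the 29 regions in all 8 lists. For Ezh2 against GFP, 2 of 29 (6.90%) were called, both higher, and 4.44% of all regions were. For Ezh2-Y726D against GFP, 2 of 29 were called, 1 higher and 1 lower, against 8.21% of all regions. For Ezh2 against Ezh2-Y726D, 2 of 29 were called, both higher with active Ezh2, against 14.0% of all regions. Nothing particular to these genes is read from 2 of 29, so the called regions are described one by one. The median score difference over the 29 was 0.07, -0.09 and 0.15 in the 3 comparisons, and 0.01, -0.01 and 0.02 over all regions. The median size of the difference, sign left out, was smaller in the 29 than over all regions each time, at 0.14, 0.23 and 0.21 against 0.22, 0.28 and 0.32. Start sites of the members made up 9 of the 29, and start sites of protein-coding genes 14132 of the 69493. Over the series, calls were rarer at start sites, and the part of this make-up in the smaller medians was not tested.

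**Figure D3:**
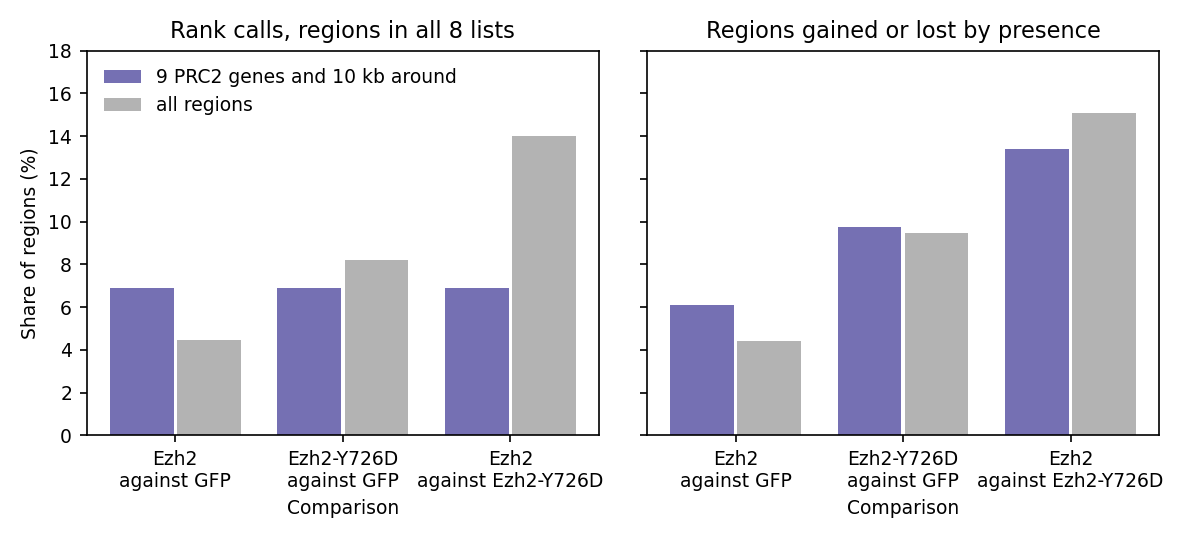
Share of regions in percent (y axis, from 0) called by rank among regions in all 8 lists (left) and gained or lost by presence among all regions (right) for the 3 comparisons (x axis), in the windows of the 9 genes and over all regions. At the 9 genes the rank share was 6.90% in each comparison, while over all regions it was 4.44%, 8.21% and 14.0%.

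At Ezh1, 1 region inside the gene was lower with catalytically dead Ezh2. It lies at chr11:101211859-101212451, 14308 bp into the gene. Its percentiles were 85.4, 79.2 and 90.2 in GFP, 88.8, 82.2 and 81.8 in Ezh2, and 57.5 and 67.6 with Ezh2-Y726D. GFP and Ezh2 overlapped, and both Ezh2-Y726D values lay below every other value. The score difference was -0.94 ± 0.21 for Ezh2-Y726D against GFP (limma adjusted p = 0.0269) and 0.87 ± 0.21 for Ezh2 against Ezh2-Y726D (limma adjusted p = 0.0250), while Ezh2 against GFP gave -0.07 ± 0.19 (limma adjusted p = 0.884). Leaving out 1 library at a time moved the adjusted p to between 0.0280 and 0.186 against GFP, and the call was lost without GFP replicate 1, GFP replicate 3, Ezh2-Y726D replicate 1 or Ezh2-Y726D replicate 2. Against Ezh2 it was lost without Ezh2 replicate 1 or without either Ezh2-Y726D replicate, with adjusted p from 0.0274 to 0.178 over the 8 libraries left out.

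The other Ezh1 regions were not called. At chr11:101189227-101190429, next to the end of the neighbouring gene Cntnap1, percentiles were 75.5, 76.3 and 75.2 in GFP, 75.0, 71.9 and 73.4 in Ezh2, and 60.2 and 59.9 with Ezh2-Y726D. Both Ezh2-Y726D values were again the lowest, and the score difference from GFP of -0.59 ± 0.17 missed the threshold (limma adjusted p = 0.0601). The region 25252 bp into the gene stood at 70.1 to 80.9 in GFP, 74.5 to 89.7 in Ezh2 and 76.3 to 86.3 in Ezh2-Y726D, with all groups overlapping. Upstream, chr11:101230940-101232170 had a peak in GFP replicates 1 and 3 (24.0 and 31.5), in both Ezh2-Y726D lists (37.0 and 18.03) and in no Ezh2 list. The last of the 6 regions, 38077 bp from the start, had a peak in Ezh2-Y726D replicate 2 only.

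At Jarid2, a weak region rose with both forms of Ezh2. It lies at chr13:44905833-44906543, 175414 bp into the gene. Percentiles were 2.17, 3.88 and 4.13 in GFP, 11.5, 21.2 and 14.3 in Ezh2, and 27.4 and 30.8 with Ezh2-Y726D, so the 3 groups did not overlap. In folds this was 2.58 to 2.90 in GFP, 3.16 to 3.53 in Ezh2 and 4.05 to 4.11 in Ezh2-Y726D. Against GFP, the score difference was 0.66 ± 0.16 for Ezh2 (limma adjusted p = 0.0496) and 1.13 ± 0.18 for Ezh2-Y726D (limma adjusted p = 0.00754). These comparisons share the GFP controls. Ezh2 against Ezh2-Y726D gave -0.47 ± 0.18 (limma adjusted p = 0.114). The call for Ezh2-Y726D was made in 13 of 13 alternatives that kept the region (adjusted p 0.00426 to 0.0473). The stricter peak rules, a −log10 q of at least 5 and a cover of at least 0.5, did not keep it. The call for Ezh2 was made in 2 of 13 (adjusted p 0.0293 to 0.136) and was lost without any 1 of the 8 libraries. The 13 include gene bodies only, which leaves the fit of a region unchanged and so repeats the main call.

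A further Jarid2 region, chr13:44877586-44878484, 147261 bp into the gene, was higher with active than with dead Ezh2. Its percentiles were 23.0, 19.4 and 15.0 in GFP, 37.1, 35.6 and 63.5 in Ezh2, and 7.10 and 18.03 with Ezh2-Y726D. The Ezh2 values were the 3 highest, and GFP overlapped with Ezh2-Y726D. The score difference was 0.98 ± 0.26 for Ezh2 against Ezh2-Y726D (limma adjusted p = 0.0338) and 0.75 ± 0.23 for Ezh2 against GFP (limma adjusted p = 0.104). The call was lost without Ezh2 replicate 3, the highest library, and without either Ezh2-Y726D replicate, with adjusted p from 0.0312 to 0.251 over the libraries left out. It was also lost when regions were ranked by −log10 p (adjusted p = 0.0568), and was made in 7 of 13 alternatives in all. The 13 again include gene bodies only, which repeats the main fit. The q threshold and the cover rule did not keep this region and are not among them. The other 11 regions of Jarid2 in all 8 lists were not called, with adjusted p of at least 0.0666.

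At Aebp2, the region at the 3′ end of the gene was higher with active Ezh2. Aebp2 is a zinc finger protein that stabilises PRC2. The region lies at chr6:140678284-140679352, 56155 bp from the outermost start, and covers the annotated end. Its percentiles were 80.4, 70.9 and 83.2 in GFP, 90.6, 92.8 and 93.7 in Ezh2, and 86.4 and 86.7 with Ezh2-Y726D, so that all 3 groups were apart. The folds were 6.62 to 7.73, 9.52 to 9.90 and 8.80 to 8.95. The score difference was 0.74 ± 0.17 for Ezh2 against GFP (limma adjusted p = 0.0362), 0.33 ± 0.18 for Ezh2-Y726D against GFP (limma adjusted p = 0.302) and 0.40 ± 0.18 for Ezh2 against Ezh2-Y726D (limma adjusted p = 0.178). Without any 1 of the 8 libraries the first adjusted p lay between 0.0558 and 0.121, so the call needed all of them.

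**Figure D4:**
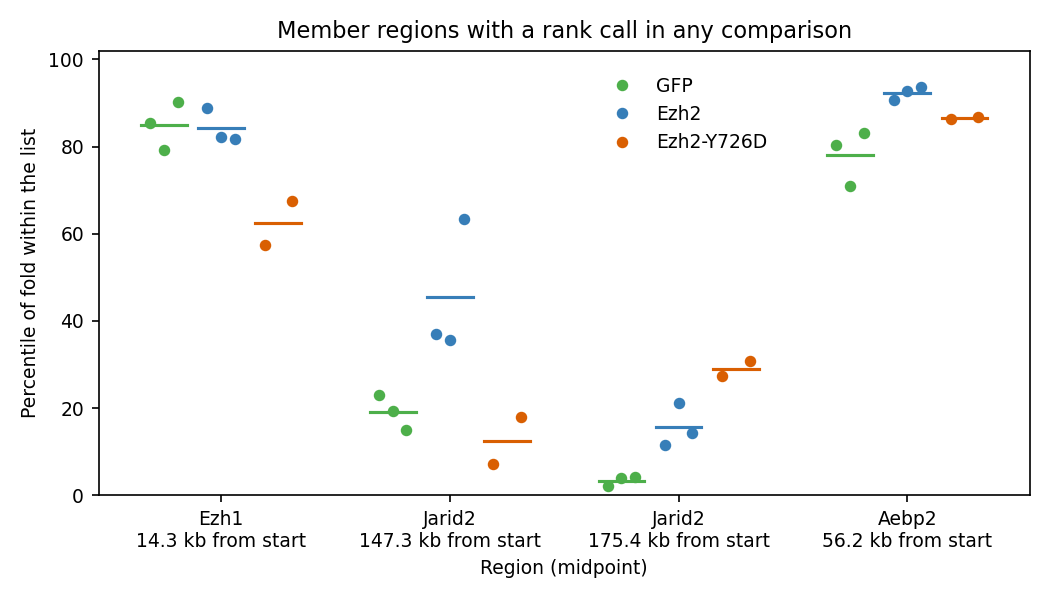
Percentile of fold within the list (y axis) of the 4 regions at Ezh1, Jarid2 and Aebp2 called by rank in any comparison (x axis, with the distance of the midpoint from the start site), 1 point per list and bars at group means. At Ezh1 both Ezh2-Y726D points, at 57.5 and 67.6, lie below the other 6, and at the Jarid2 region 175414 bp into the gene they lie above, at 27.4 and 30.8.

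Presence of a peak was compared over all 82 regions. Gained means that every list of the first group and no list of the other had a peak there, and lost means the reverse. For Ezh2 against GFP, 3 regions were gained and 2 lost (6.10%, against 4.40% of all regions). For Ezh2-Y726D against GFP, 1 was gained and 7 lost (9.76%, against 9.49%). For Ezh2 against Ezh2-Y726D, 7 were gained and 4 lost (13.4%, against 15.1%). All 3 shares, with gains and losses pooled, lie close to the background. Over all regions, gains and losses numbered 5173 and 3183, 9052 and 8970, and 17007 and 11652 in the same order. The lean to losses at the 9 genes in the second comparison was not tested. Many of these calls rested on weak peaks: with only peaks of a −log10 q of at least 5, 0 of the 5 calls for Ezh2 against GFP, 2 of the 8 for Ezh2-Y726D against GFP and 6 of the 11 for Ezh2 against Ezh2-Y726D were made again. In all, 17 of the 82 regions were gained or lost in any comparison, a share that was not counted over all regions. Of these, 13 lay at Aebp2 (7 of its 16 regions) and Jarid2 (6 of its 38), which hold most regions of the set. Ezh1, Eed, Rbbp4 and Phf1 had 1 each, and Suz12, Mtf2 and Phf19 had 0.

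Both regions lost with Ezh2 lay at core subunits and were lost with Ezh2-Y726D as well, and both comparisons use the same 3 GFP lists. Upstream of Eed, chr7:89988412-89988735 had a peak at the 49.1st, 21.7th and 29.0th percentile in GFP and in no other list. Inside Rbbp4, chr4:129311790-129312175 had a peak at 49.1, 28.7 and 55.4 in GFP and in no other list. Neither was among the strongest peaks of its list.

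At Aebp2, regions were present in different groups at different distances. The pair upstream of the gene, chr6:140613644-140614188 and chr6:140614488-140615218, was missing from both Ezh2-Y726D lists. The first stood at 37.5 and 36.3 in GFP replicates 2 and 3 and at 52.4, 41.2 and 57.1 in Ezh2. The second stood at 79.5, 31.9 and 60.2 in GFP and at 67.8, 57.4 and 71.7 in Ezh2, and so had a peak in all 6 of those lists. Inside the gene, chr6:140656015-140656457 and chr6:140662835-140663221 had peaks at the 9.40th to 29.6th percentile in all 3 GFP lists and in neither Ezh2-Y726D list. The 3 Ezh2 lists alone had peaks at chr6:140667322-140667684 (27.3, 18.8 and 33.4) and, past the end of the gene, at chr6:140684134-140684752 (15.1, 25.2 and 67.2). The region gained with Ezh2-Y726D, chr6:140666771-140667118, had peaks at 22.9 and 10.0 there and at 11.5 in Ezh2 replicate 2.

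**Figure D5:**
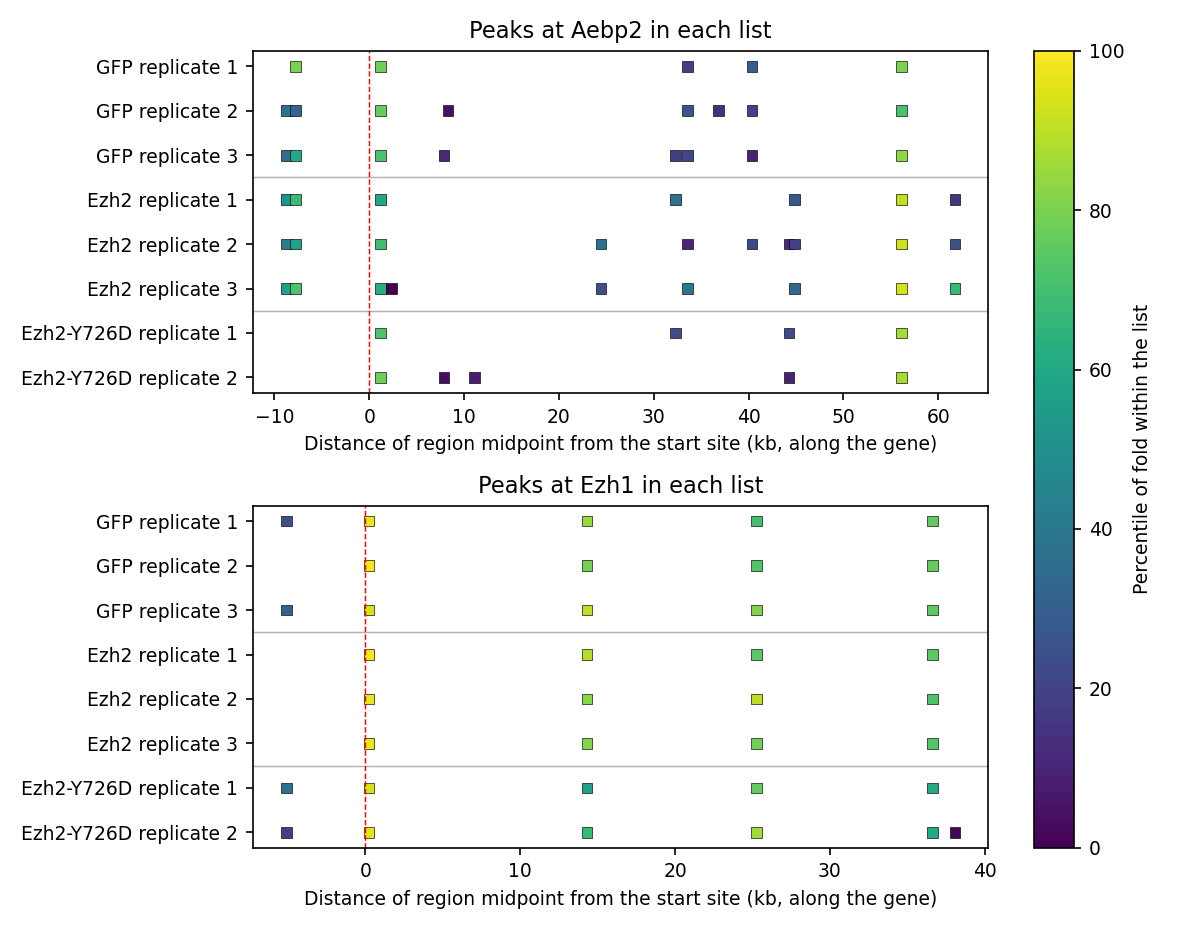
Peaks at Aebp2 (top) and Ezh1 (bottom) in each of the 8 lists (y axis) by the distance of the merged region from the start site in kb (x axis), with the colour giving the percentile of fold within the list from 0 to 100. The pair of regions upstream of Aebp2 is missing from both Ezh2-Y726D lists, and the 4 Ezh1 regions shared by all lists include 1 inside the gene that is lower in both Ezh2-Y726D lists.

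Jarid2 showed a like mixture. At chr13:44799751-44800570, 69386 bp into the gene, peaks stood at 47.7, 61.8 and 20.2 in GFP and at 81.3, 79.9 and 77.0 in Ezh2, and neither Ezh2-Y726D list had one. At chr13:44770766-44771270 peaks stood at 15.5 and 21.9 in GFP replicates 1 and 3, at 66.4, 71.3 and 79.3 in Ezh2, and again neither Ezh2-Y726D list had one. In both regions the 3 Ezh2 values were above every GFP value. A weak region, chr13:44811060-44811421, had peaks in the 3 Ezh2 lists only (7.67, 11.7 and 4.03). The region chr13:44856815-44857282 had peaks in all 3 GFP lists (42.1, 25.9 and 21.8), in Ezh2 replicate 2 (8.92) and in neither Ezh2-Y726D list. The reverse was seen at chr13:44880687-44881032 (16.5 in GFP replicate 1, 25.1 and 5.05 in Ezh2-Y726D) and chr13:44912908-44913374 (4.07 and 9.78 in GFP replicates 2 and 3, 5.51 and 2.496 in Ezh2-Y726D), which had no peak in any Ezh2 list.

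Like the regions at Jarid2 and Aebp2 that were missing with Ezh2-Y726D, markers of immune cells often had no peak in that group. In both Ezh2-Y726D lists, 15 of 20 microglia and macrophage markers and 15 of 20 T cell markers had no peak at the start site. Of these, 7 and 10 had a peak in all 6 GFP and Ezh2 lists, among them Cx3cr1, C1qb, Tyrobp and Ptprc, and Cd3e, Cd3g, Cd8a and Cd2. Some markers went the other way: C1qc stood at 92.3 and 85.4 with Ezh2-Y726D and at most at 63.6 in GFP, and P2ry12 at 63.2 and 60.3, against 17.1 to 43.8 in GFP and no peak in Ezh2. Summed percentiles over the microglia and macrophage list were 608.0 to 820.4 in GFP, 774.7 to 922.2 in Ezh2 and 340.5 to 361.1 in Ezh2-Y726D. Over the T cell list they were 834.8 to 947.1, 991.2 to 1183 and 136.5 to 247.1. Summed percentiles over rod markers, at 1054 to 1073, 932.2 to 1082 and 746.4 to 912.5, were also lowest with Ezh2-Y726D. Those over RGC markers, at 1013 to 1044, 1072 to 1098 and 926.1 to 1048, overlapped between GFP and Ezh2-Y726D. The part of these cells in the regions lost or lower at the 9 genes was not tested.

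Other genes of the pathway were read in the same way: Ezh2 itself, Rbbp7, Epop, Lcor, Lcorl, Skida1 and Ezhip. A start-site peak was present in all 8 lists at 6 of the 7, and in 0 lists at Ezhip, which encodes an inhibitor of PRC2. Their windows held 49 regions, 17 of them in all 8 lists. Of the 17, limma called 0 for Ezh2 against GFP, 1 lower for Ezh2-Y726D against GFP (at Lcorl) and 0 for Ezh2 against Ezh2-Y726D, where 4.44%, 8.21% and 14.0% of all regions were called. At an unadjusted p under 0.05 there were 2, 4 and 2 of 17, beside the 20.0%, 24.4% and 29.4% of all regions. By presence, 5 regions were gained and 0 lost with Ezh2 and 0 gained and 2 lost with Ezh2-Y726D, each set against GFP, while active against dead Ezh2 gave 7 gained and 1 lost. These counts of 5, 2 and 8 of 49 stand beside 4.40%, 9.49% and 15.1% of all regions. The Ezh2 gene held 3 of the 5 and 5 of the 7 gained regions, and 0 of its regions were gained with Ezh2-Y726D against GFP. Both the Ezh2 and Ezh2-Y726D viruses carry Ezh2 sequence, and its part in these peaks was not tested. Its start-site region stood at 89.7 to 93.0 in GFP, 90.6 to 92.0 in Ezh2 and 92.0 to 94.0 in Ezh2-Y726D (limma adjusted p = 0.870 for Ezh2 against GFP and 0.676 for Ezh2 against Ezh2-Y726D).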

How the data were processed

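The authors called peaks per sample, and the deposited lists give each peak's fold (a ratio of the summit pileup to the local background), −log10 p-value and q-value, score and summit position. The submitters' processing notes name cutadapt, Bowtie2, SAMtools, Picard, MACS2 and deepTools and the build GRCm38; versions and thresholds were not given in the sources used here. The lowest deposited −log10 q was 1.31 to 1.38. The deposited score was not used. All positions are in GRCm38, counted from 1. Start sites (within 1 kb) were those of RefSeq for GRCm38.p6.

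Peaks were merged, percentiles taken within lists, and normal scores fitted with limma 3.58.1 (R 4.3.3; all 8 samples in 1 fit), with Python 3.11.15, pandas 2.3.3 and SciPy 1.17.1 for the rest. Single values were tested by two-sided exact permutation. The rank fit and interval operations were checked on simulated data. The named regions were every start-site region, every region called, gained or lost, and those of highest mean percentile, except that regions downstream of Phf1 are not reported here. For Ezh1 the 3 nearest start-site patterns were named. The members, pathway genes and marker lists were chosen with earlier results of these data known. Alternatives were a −log10 q of at least 5, a cover of at least 0.5 of a region, lists of equal length (112939 peaks), ranking by −log10 p, gene bodies only, replicate blocks and leaving out each library. No batch is named in the labels, and within-batch values could not be given. No list was a copy of another.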

Additional observations from a re-analysis of the deposited data

How the results depend on the processing

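Counts at the 9 genes are given in the order of the report: active Ezh2 and then dead Ezh2 against GFP, then active against dead. With a −log10 q of at least 5, rank calls were 1, 1 and 1 and regions gained or lost 1, 3 and 7, of which 0, 2 and 6 were among those of the full lists. With a cover of at least 0.5 of a region, rank calls were 1, 1 and 1, and 5 regions were gained or lost in the second comparison. With lists of equal length, 1 region was called by rank in the first comparison and 5 were gained or lost in the second. In gene bodies only, 3 and 6 regions were gained or lost in the first and last. The difference in peaks between Ezh2 and GFP turned positive with the q threshold (0.333), in gene bodies (2.33), and without GFP replicate 3 (2.5), Ezh2 replicate 1 (1.17) or Ezh2 replicate 2 (0.167). Leaving out 1 library gave 0 to 0, 1 to 3 and 0 to 2 rank calls, 6 to 8, 10 to 13 and 12 to 17 regions gained or lost, and differences of -2.5 to 2.5, -6.33 to -1 and 1 to 6 peaks. Requiring fewer lists makes presence calls easier. The cause of the other changes was not tested. Start-site regions gave 0 rank calls under every alternative run.

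The titles and the peak names carry replicate numbers, which differ for Ezh2-Y726D. Deviations of same-numbered samples correlated at -0.0151 to 0.0478 by the titles (median 0.00545) and 0.00180 to 0.0478 by the peak names (median 0.0151). Samples of different numbers gave -0.0482 to 0.0461 (median -0.00194) and -0.0482 to 0.0303 (median -0.00476). With 2 samples, the Ezh2-Y726D deviations mirror each other, so these correlations are not independent and cannot settle whether the numbers mark pairs. The main fit did not take the numbers as pairs. With the number of the titles as a replicate block, rank calls were 0, 1 and 0, and with that of the peak names 0, 1 and 0. The remaining call in both was the Jarid2 region 175414 bp into the gene. Depth, peak threshold and annotation limit these results: depth is unknown, presence depends on the caller's threshold, and 2 Ezh2-Y726D samples give little power.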
